A study of Mus musculus with 2 samples.

Results

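The enzymes and carriers of fatty acid oxidation were followed as a set of 37 named genes, of which 36 had a row of their own among the 31920 rows of the deposited expression table. Mlycd, which encodes malonyl-CoA decarboxylase, is not analysed here. The members were chosen by name as pathway genes, with earlier results of these data known, and they cover uptake and binding of fatty acids, activation to acyl-CoA, the carnitine shuttle with its control by malonyl-CoA, the mitochondrial spiral, handling of double bonds, electron transfer, peroxisomal oxidation, thioesterases and uncoupling proteins. The study sequenced polyadenylated RNA from the left ventricle of 129-SvEv mice, which were male and 10 weeks old. One group carried the genotype label Lamp2 knockout and the other the label Wildtype, and each held 1 library, which contained 8773820 reads assigned to genes in the knockout-labelled library and 8410593 in the wildtype library. LAMP2 is a membrane protein of lysosomes, and the series title names a cardiomyopathy from its loss. The labels state neither which part of Lamp2 the allele removes nor whether a library came from 1 animal.

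Lamp2 itself was at 112 reads per 1000000 reads assigned to genes (RPM) in the knockout-labelled library and 118 RPM in the wildtype library, a ratio of 0.955 (95% interval 0.873 to 1.04), so its level does not check the label. No difference below has a replicate check, no p-value is given, and every interval of a ratio or share is an exact binomial 95% interval that covers counting error only. In whole left ventricle, fewer cells of a type and less RNA per cell cannot be told apart. Defining cardiomyocyte transcripts were abundant in both libraries: Myh6, the α myosin heavy chain, was at 18405 RPM in the knockout-labelled library and 19313 RPM in the wildtype library. The 12 cardiomyocyte markers summed to 65636 RPM in the knockout-labelled library and 68215 RPM in the wildtype library. Of these 12, 0 were at least 2-fold apart. Among all genes of at least 5 RPM in the higher library, 2.37% were at least 2-fold lower and 3.35% at least 2-fold higher. So few markers can hardly differ from those shares. Marker ratios of the knockout-labelled over the wildtype library ran from 0.595 for Pln to 1.42 for Ryr2. Of all reads, 16.2% in the knockout-labelled library and 26.5% in the wildtype library fell on mitochondrially encoded rows, and each RPM is a share of all reads, so this difference enters every RPM.

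The adult heart takes most of its energy from long-chain fatty acids. They are bound in the cytosol, joined to coenzyme A, passed through the inner mitochondrial membrane as carnitine esters and shortened in repeated turns of dehydrogenation, hydration, a second dehydrogenation and thiolysis, with electrons handed to the respiratory chain. Many of these genes are known targets of the nuclear receptor PPARα, which fatty acids activate, and of the estrogen-related receptors and the coactivators of the PGC1 family, which maintain mitochondrial genes in heart muscle.

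Promoters are shown for the 4 members with the lowest ratios of the knockout-labelled over the wildtype library, for Hadha, whose start region lies against that of Hadhb, and for Acadvl, which had the most reads of the spiral genes in the knockout-labelled library. Each runs 5′ to 3′ on the gene's own strand, from 250 bases before to 50 bases after the annotated start in RefSeq on GRCm38.p6, and capitals mark a match to the PPAR-type element described below. They lie at chr7:100472741-100473040 on the plus strand (Ucp3), chr12:84009252-84009551 on the plus strand (Acot1), chr12:83987611-83987910 on the plus strand (Acot2), chr19:3323051-3323350 on the plus strand (Cpt1a), chr5:30154931-30155230 on the minus strand (Hadha) and chr11:70015379-70015678 on the minus strand (Acadvl).
Ucp3: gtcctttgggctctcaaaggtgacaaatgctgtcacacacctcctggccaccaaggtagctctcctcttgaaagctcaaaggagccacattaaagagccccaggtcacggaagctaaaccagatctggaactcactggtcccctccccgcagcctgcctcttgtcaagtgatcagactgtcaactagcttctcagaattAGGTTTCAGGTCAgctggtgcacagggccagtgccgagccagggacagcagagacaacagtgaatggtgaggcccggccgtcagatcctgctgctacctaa
Acot1: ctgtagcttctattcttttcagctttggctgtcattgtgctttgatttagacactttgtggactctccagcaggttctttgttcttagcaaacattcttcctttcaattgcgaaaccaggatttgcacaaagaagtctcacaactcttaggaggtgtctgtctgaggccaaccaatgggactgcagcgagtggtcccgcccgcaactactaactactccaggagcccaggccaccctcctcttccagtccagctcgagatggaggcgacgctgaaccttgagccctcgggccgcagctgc
Acot2: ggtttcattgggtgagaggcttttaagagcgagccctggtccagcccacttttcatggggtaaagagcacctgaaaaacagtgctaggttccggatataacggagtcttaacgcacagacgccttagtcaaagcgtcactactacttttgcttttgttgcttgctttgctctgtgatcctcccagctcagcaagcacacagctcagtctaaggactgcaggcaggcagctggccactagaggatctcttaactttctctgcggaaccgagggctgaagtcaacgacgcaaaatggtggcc
Cpt1a: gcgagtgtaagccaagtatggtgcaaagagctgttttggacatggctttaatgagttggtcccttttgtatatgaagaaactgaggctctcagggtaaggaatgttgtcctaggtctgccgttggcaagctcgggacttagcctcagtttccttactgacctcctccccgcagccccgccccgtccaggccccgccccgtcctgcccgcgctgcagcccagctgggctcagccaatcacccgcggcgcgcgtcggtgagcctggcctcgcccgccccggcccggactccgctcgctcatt
Hadha: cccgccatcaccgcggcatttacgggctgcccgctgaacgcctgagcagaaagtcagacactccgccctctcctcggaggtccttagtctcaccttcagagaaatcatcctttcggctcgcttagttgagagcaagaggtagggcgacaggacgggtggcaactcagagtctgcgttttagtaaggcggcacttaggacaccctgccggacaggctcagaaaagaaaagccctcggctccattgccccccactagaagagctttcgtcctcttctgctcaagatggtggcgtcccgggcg
Acadvl: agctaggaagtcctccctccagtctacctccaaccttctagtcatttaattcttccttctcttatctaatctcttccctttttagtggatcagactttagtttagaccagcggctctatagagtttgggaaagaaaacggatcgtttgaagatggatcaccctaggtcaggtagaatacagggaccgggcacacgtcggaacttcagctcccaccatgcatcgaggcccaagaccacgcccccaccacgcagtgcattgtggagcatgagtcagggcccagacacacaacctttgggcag

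RefSeq promoters were found for 31 of the 37 members, 34 windows in all. They were searched on both strands for a direct repeat of AGGTCA with 1 base between the repeat units (DR1, the type of element that PPAR binds with RXR), allowing 2 mismatches in the 12 fixed bases, and for TNAAGGTCA without mismatch, an element of estrogen-related receptors. A DR1 match was present in 3 of 34 member windows (8.82%) and in 3.86% of all 32851 RefSeq promoter windows. The Ucp3 match, AGGTTTCAGGTCA, begins at position -51 from the annotated start. The other matches were AGGTCACGGGTCC at -83 in Echs1 and TTACCTTTGCCCT, a match on the opposite strand, at -77 in Etfa. These 3 genes spanned nearly the whole range of ratios among members, since Ucp3 had the lowest ratio and Echs1 was among the few with a higher level in the knockout-labelled library. TNAAGGTCA was found in 0 of 34 member windows and in 1.28% of all windows. A match to these letters is a description of the window and not a binding site, and the windows hold no distal elements or later exons.

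Members were lower as a set in the knockout-labelled library. Their summed level was 11519 RPM in the knockout-labelled library and 15402 RPM in the wildtype library, a ratio of 0.748 (0.742 to 0.754). As a share of reads outside the mitochondrial genome, which does not depend on the mitochondrial fraction, members took 1.38% (1.37 to 1.38) in the knockout-labelled library and 2.09% (2.08 to 2.11) in the wildtype library. Of the 36 members, 34 reached the minimum of 5 RPM in the higher library that counts as measured, and Acsl3 and Decr2 did not. The difference was described as log2((knockout-labelled RPM + 1)/(wildtype RPM + 1)), called lower or higher at a size of at least 1. By that rule 4 of 34 measured members were lower (Ucp3, Acot1, Acot2 and Cpt1a), against 2.37% of all 10209 measured genes, and 0 of 34 were higher, against 3.35% of all measured genes.

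The bulk of the members lay under this rule. Within the 34, 27 had a log2 ratio below 0, where 38.8% of all measured genes did, and the median was −0.43 for members and 0.11 for all measured genes. At least 1.5-fold lower were 10 of 34 members, against 7.30% of all measured genes, and at least 1.5-fold higher were 0, against 12.8%. Among genes averaging at least 100 RPM, a group chosen after the values were seen because most members are abundant, 6 of 23 members were at least 1.5-fold lower, against 4.58% of 1289 such genes. Without the 4 called genes the median over 30 measured members was −0.34.

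The size of the set's deficit depended on scaling. The rescalings do not test its direction, because each of them lowered log2 ratios and the member median was already below 0. Dividing by the median ratio of all measured genes, by a trimmed mean of log ratios (TMM) or by the total without mitochondrial rows and the 10 most abundant genes lowered log2 ratios by 0.12, 0.12 and 0.18. The member median was then −0.54, −0.55 and −0.62, over 34, 34 and 36 members, since Acsl3 and Decr2 and some other genes passed the 5 RPM minimum under the reduced total. The number called lower was 4, 5 and 6, with Ech1 added under the TMM scaling and Ech1 and Slc27a1 under the last one. Over all measured genes, the calls were 242 lower and 342 higher on the deposited scale (58.6% higher), 308 and 244 with the median ratio (44.2% higher), 326 and 245 with TMM (42.9% higher), and 494 and 253 with the reduced total (33.9% higher). Of the 7 members above 0 on the deposited scale, Acot13, Echs1 and Acsl5 stayed above 0 under each of these scalings, while Acss1, Etfa, Acsl4 and Acaa1a were below 0 under each.

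**Figure D1:**
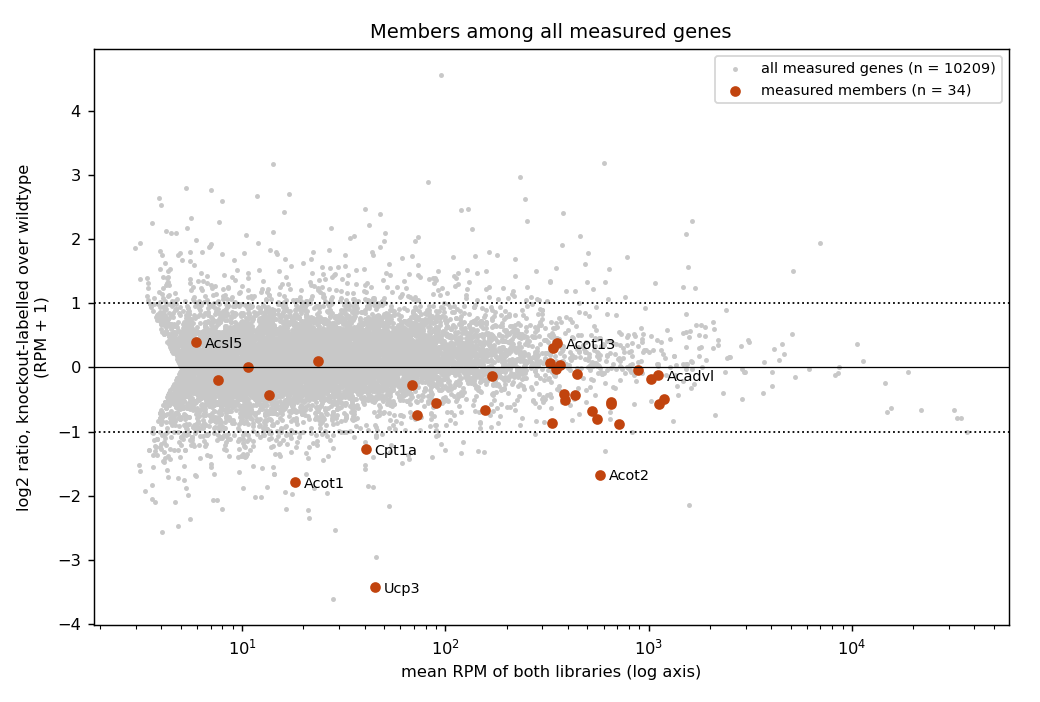
Log2 ratio of the knockout-labelled over the wildtype library, with 1 RPM added (y axis), against the mean RPM of both libraries (x axis, log scale) for 10209 measured genes in grey and the 34 measured members in orange; dotted lines mark a 2-fold difference. Most members lie to the right, among abundant genes, and below 0, and Ucp3, Acot1, Acot2 and Cpt1a lie below the lower line.

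Genes of uptake and binding were lower in all 3 cases. Fabp3, the fatty acid binding protein of heart muscle cytosol, had 8671 reads (988 RPM) in the knockout-labelled library and 11653 reads (1386 RPM) in the wildtype library, a ratio of 0.713 (0.694 to 0.733). It had the highest level per kilobase of exon of all members in both libraries, at 1201 RPM per kb in the knockout-labelled library and 1683 RPM per kb in the wildtype library. Slc27a1, a fatty acid transport protein with acyl-CoA synthetase activity, was at 238 RPM in the knockout-labelled library and 434 RPM in the wildtype library, a ratio of 0.548 (0.520 to 0.579). Slc22a5, the carnitine importer of the cell membrane, was at 11.4 RPM in the knockout-labelled library and 15.7 RPM in the wildtype library, and its interval of 0.554 to 0.949 rests on 100 and 132 reads. The step as a whole summed to 1238 RPM in the knockout-labelled library and 1835 RPM in the wildtype library.

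Among the activation genes, Acsl1, the main long-chain acyl-CoA synthetase of heart, was at 402 RPM in the knockout-labelled library and 706 RPM in the wildtype library (3525 and 5939 reads), a ratio of 0.569 (0.546 to 0.593). The other long-chain synthetases were low. Acsl4, which prefers arachidonic acid, was at 10.7 RPM in both libraries, Acsl5 at 6.84 RPM in the knockout-labelled library and 4.99 RPM in the wildtype library, and Acsl3 at 2.39 RPM in the knockout-labelled library and 3.92 RPM in the wildtype library, and the interval of each ratio included 1. The opposite-strand Zdhhc6 row overlaps Acsl5 by 25338 bases and had 87 reads in the knockout-labelled library and 83 in the wildtype library. Without a known strand setting, reads of Zdhhc6 and Acsl5 cannot be told apart there. Acsl1 made up 95.3% (94.5 to 95.9) of the reads of the 4 synthetase genes in the knockout-labelled library and 97.3% (96.9 to 97.7) in the wildtype library. Acss1, the mitochondrial acetyl-CoA synthetase, which activates acetate rather than a long-chain acid, had the highest level per kilobase of the step in the knockout-labelled library, at 102 RPM per kb in the knockout-labelled library and 99.6 RPM per kb in the wildtype library, and a ratio of 1.03 (0.976 to 1.08).

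In the carnitine shuttle the transferases for long chains were lower and the one for short chains was near 1. Cpt1b, the muscle form of the outer-membrane transferase that controls entry, was at 523 RPM in the knockout-labelled library and 776 RPM in the wildtype library (4590 and 6525 reads), a ratio of 0.674 (0.649 to 0.700). Cpt1a, the liver form, which the heart also expresses (chromosome 19, 3323301 to 3385733, mm10), had 204 reads (23.3 RPM) in the knockout-labelled library and 486 reads (57.8 RPM) in the wildtype library, a ratio of 0.402 (0.340 to 0.475). Cpt2, the transferase of the inner membrane, had a ratio of 0.676 (0.610 to 0.749), close to that of Cpt1b. Crat, which makes acetylcarnitine, was at 347 RPM in the knockout-labelled library and 354 RPM in the wildtype library, a ratio of 0.982 (0.933 to 1.03).

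Cpt1a made up 4.26% (3.70 to 4.87) of the reads of the CPT1 genes in the knockout-labelled library and 6.93% (6.35 to 7.55) in the wildtype library. Such a share within a library does not change with scaling, and the intervals of the libraries did not overlap. Acacb, the acetyl-CoA carboxylase that makes the malonyl-CoA that inhibits CPT1, was lower along with the transferases, at 320 RPM in the knockout-labelled library and 453 RPM in the wildtype library, a ratio of 0.705 (0.671 to 0.740).

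**Figure D2:**
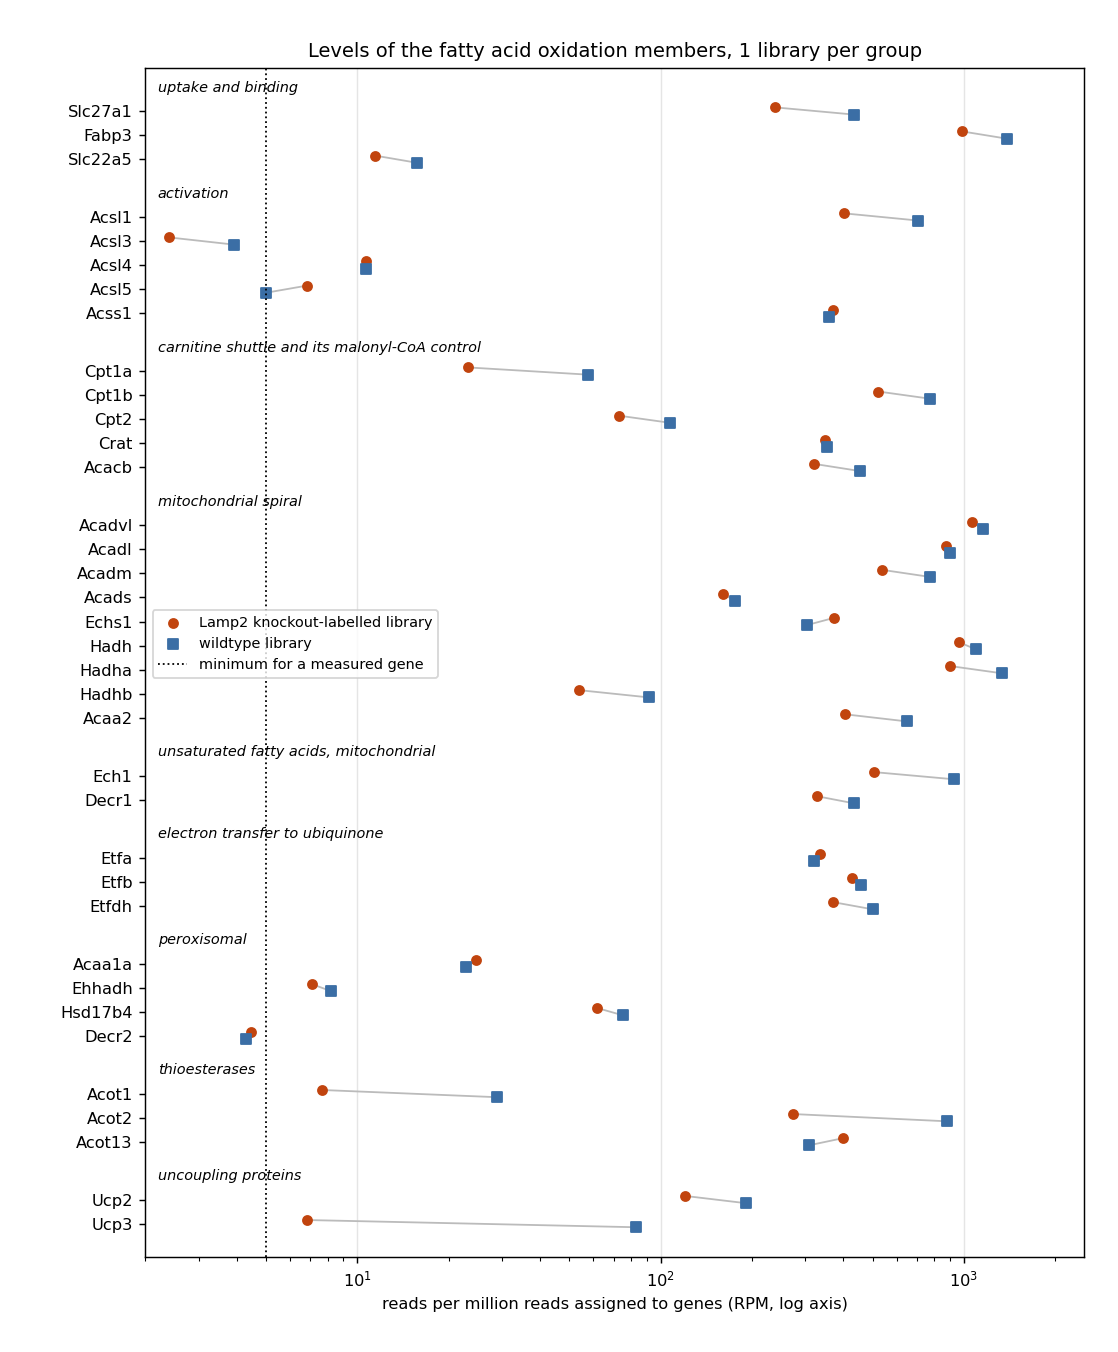
Level of each of the 36 members in RPM (x axis, log scale) in the Lamp2 knockout-labelled library (circles) and the wildtype library (squares), grouped by step, with 1 library per group; the dotted line is the 5 RPM minimum. Circles lie left of squares for most members, with the widest gaps in Ucp3 at 6.84 against 83.2 RPM, Acot1 at 7.64 against 28.9 RPM and Acot2 at 274 against 878 RPM.

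Within the mitochondrial spiral the first dehydrogenases did not share a ratio. Acadvl, which acts on very long chains, was at 1061 RPM in the knockout-labelled library and 1155 RPM in the wildtype library, a ratio of 0.918 (0.892 to 0.945). The opposite-strand Dvl2 row overlaps Acadvl by 2110 bases and had 1532 reads in the knockout-labelled library and 1949 in the wildtype library. No source used here gives a strand setting, so reads of Dvl2 and Acadvl cannot be told apart there. Acadl, the long-chain enzyme, was at 876 RPM in the knockout-labelled library and 903 RPM in the wildtype library, and the interval of its ratio of 0.970 included 1. Acadm, the medium-chain enzyme and a textbook PPARα target, was at 536 RPM in the knockout-labelled library and 776 RPM in the wildtype library, a ratio of 0.690 (0.665 to 0.717). Acads, the short-chain enzyme, was at 161 RPM in the knockout-labelled library and 176 RPM in the wildtype library, a ratio of 0.915 (0.850 to 0.984). The medium-chain gene was thus the lowest of the 4 in ratio, and its share of their summed reads was 20.3% (19.8 to 20.9) in the knockout-labelled library and 25.8% (25.2 to 26.3) in the wildtype library.

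The genes of the later spiral reactions also differed among themselves in ratio. Hadha and Hadhb encode the subunits of the trifunctional protein, which carries out the last steps on long chains at the inner membrane. Hadha was at 903 RPM in the knockout-labelled library and 1337 RPM in the wildtype library, a ratio of 0.676 (0.656 to 0.695), and Hadhb was at 54.0 RPM in the knockout-labelled library and 91.4 RPM in the wildtype library, a ratio of 0.591 (0.526 to 0.663). Echs1, the short-chain enoyl-CoA hydratase, was instead higher, at 373 RPM in the knockout-labelled library and 303 RPM in the wildtype library, a ratio of 1.23 (1.17 to 1.29), or a log2 ratio of 0.30 that was 0.11 to 0.18 under the rescalings.

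Hadh, the hydroxyacyl-CoA dehydrogenase for shorter chains, had the highest level per kilobase of the spiral in both libraries, at 537 RPM per kb in the knockout-labelled library and 611 RPM per kb in the wildtype library. Its 8435 reads in the knockout-labelled library and 9196 reads in the wildtype library gave a ratio of 0.879 (0.854 to 0.906). Acaa2, the mitochondrial thiolase, was at 405 RPM in the knockout-labelled library and 652 RPM in the wildtype library, a ratio of 0.622 (0.596 to 0.649). The 9 spiral genes summed to 5330 RPM in the knockout-labelled library and 6488 RPM in the wildtype library, a ratio of 0.822 (0.811 to 0.832), with a median log2 ratio of −0.19.

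Hadha and Hadhb lie head to head on chromosome 5 (30118304 to 30154980 on the minus strand and 30155289 to 30184583 on the plus strand, mm10), with 308 bases between the deposited rows, and their RefSeq promoter windows share 228 bases. Per kilobase Hadhb ranked 25 of 36 members in both libraries, while Hadha, at 225 RPM per kb in the knockout-labelled library and 333 RPM per kb in the wildtype library, ranked 12 in the knockout-labelled library and 11 in the wildtype library. Of the 50-base words of Hadhb transcripts, 57.5% also occur in transcripts of another annotated gene, mostly Gm13910, while for Hadha the share was 0.655%. Other members with shares over 20% were Cpt1b at 80.4%, Etfb at 57.7%, Fabp3 at 37.3%, Acaa1a at 35.5%, Slc22a5 at 27.1% and Acadvl at 23.5%, besides Acot1 and Acot2. The part of shared sequence in the low level of Hadhb was not tested, and how reads that match several places were treated is not given in the sources used here.

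Both mitochondrial genes for double bonds were lower. Ech1, a dienoyl-CoA isomerase found in mitochondria and peroxisomes, had 4424 reads (504 RPM) in the knockout-labelled library and 7815 reads (929 RPM) in the wildtype library, a ratio of 0.543 (0.523 to 0.563). Per kilobase it ranked 7 of 36 members in the knockout-labelled library, at 398 RPM per kb, and 2 of 36 in the wildtype library, at 733 RPM per kb. Decr1, the mitochondrial dienoyl-CoA reductase, was at 327 RPM in the knockout-labelled library and 435 RPM in the wildtype library, a ratio of 0.753 (0.716 to 0.790).

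Ratios of the electron transfer genes lay closer to 1. Etfa and Etfb encode the subunits of the flavoprotein that collects electrons from the acyl-CoA dehydrogenases. Etfa was at 335 RPM in the knockout-labelled library and 321 RPM in the wildtype library, a ratio of 1.04 (0.990 to 1.10). Etfb, the highest of the step per kilobase, was at 429 RPM (3767 reads) in the knockout-labelled library and 460 RPM (3867 reads) in the wildtype library, a ratio of 0.934 (0.893 to 0.977). Etfdh, which passes the electrons to ubiquinone, was lower, at 371 RPM in the knockout-labelled library and 501 RPM in the wildtype library, a ratio of 0.740 (0.706 to 0.775).

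Peroxisomal members were low in both libraries and close to each other between them. Hsd17b4, the multifunctional enzyme for branched and very long chains, had the highest level per kilobase of the step, with 543 reads (61.9 RPM) in the knockout-labelled library and 632 reads (75.1 RPM) in the wildtype library, a ratio of 0.824 (0.733 to 0.925). Acaa1a, a peroxisomal thiolase, was at 24.6 RPM in the knockout-labelled library and 22.8 RPM in the wildtype library. Ehhadh, the bifunctional enzyme, was at 7.07 RPM in the knockout-labelled library and 8.20 RPM in the wildtype library, and Decr2, the peroxisomal dienoyl-CoA reductase, at 4.45 RPM in the knockout-labelled library and 4.28 RPM in the wildtype library. The intervals of Acaa1a, Ehhadh and Decr2 included 1, and at 36 to 216 reads per library a difference of this size was not detectable at this depth.

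**Figure D3:**
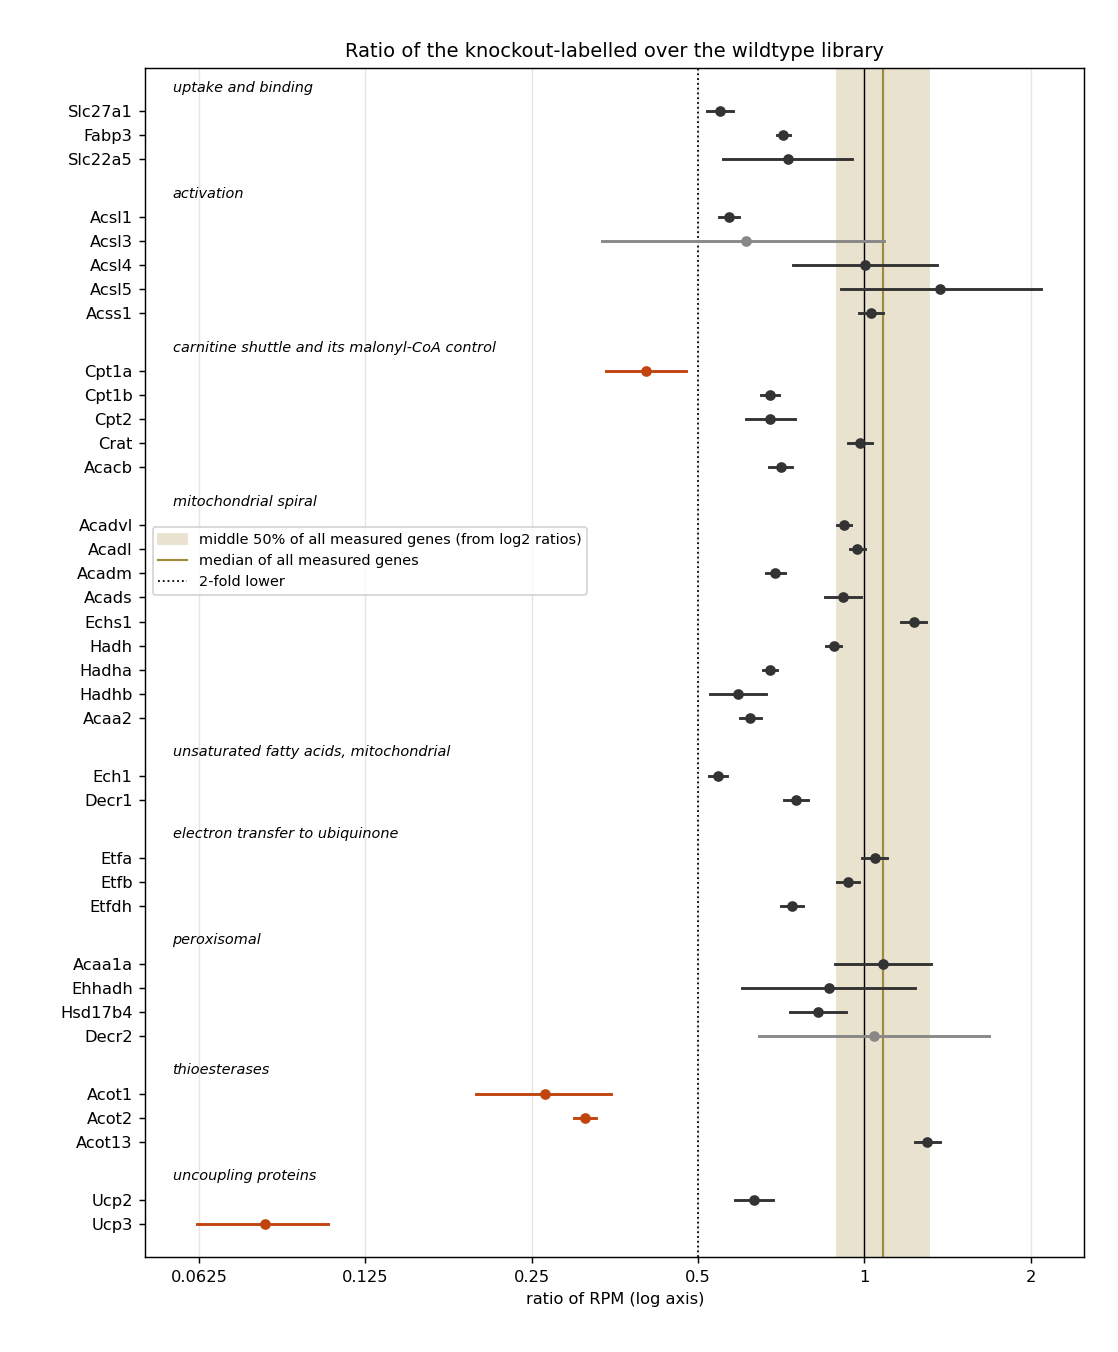
Ratio of RPM in the knockout-labelled over the wildtype library (x axis, log scale) with exact binomial 95% counting intervals (bars) for 36 members by step; orange marks the 4 called lower, grey the 2 under the minimum, and the band and line are the quartiles and median of all measured genes. Members of uptake, the long-chain shuttle and the thiolase and trifunctional genes lie left of the band, while Etfa, Crat, Acadl and Acss1 lie inside it.

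Of the 4 members called lower, 3 encode thioesterases or an uncoupling protein, which take no part in the chain-shortening reactions themselves. Acot2, the mitochondrial acyl-CoA thioesterase, which releases free fatty acid from acyl-CoA in the matrix (chromosome 12, 83987861 to 83993875), had 2407 reads (274 RPM) in the knockout-labelled library and 7383 reads (878 RPM) in the wildtype library, a ratio of 0.313 (0.298 to 0.327). Acot1, its cytosolic neighbour (chromosome 12, 84009502 to 84017669), had 67 reads (7.64 RPM) in the knockout-labelled library and 243 reads (28.9 RPM) in the wildtype library, a ratio of 0.264 (0.199 to 0.348). Both lie on the plus strand, 15626 bases apart.

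Acot1 and Acot2 share transcript sequence, with 24.5% of the 50-base words of Acot2 also present in Acot1, so their reads may be split between them. Without these and the other members that share over 20% of their words, Acot13 was the one thioesterase left, and the median log2 ratio of the step was 0.38 in place of −1.67. Acot1 made up 2.71% (2.10 to 3.43) of their summed reads in the knockout-labelled library and 3.19% (2.80 to 3.61) in the wildtype library, and these intervals overlapped. Their promoter windows, printed above, had 45.7% identity in a global alignment, and those of Ucp2 and Ucp3 had 48.1%. Acot13, a thioesterase of another protein fold, was instead at 400 RPM (3510 reads) in the knockout-labelled library and 308 RPM (2590 reads) in the wildtype library, a ratio of 1.30 (1.23 to 1.37), or a log2 ratio of 0.38 that was 0.19 to 0.26 under the rescalings. It had the highest level per kilobase of the thioesterases, at 555 RPM per kb in the knockout-labelled library and 427 RPM per kb in the wildtype library.

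Ucp3, the uncoupling protein of skeletal and heart muscle mitochondria and a known PPARα target (chromosome 7, 100472991 to 100486432), had 60 reads (6.84 RPM) in the knockout-labelled library and 700 reads (83.2 RPM) in the wildtype library, a ratio of 0.0822 (0.0620 to 0.107). Its log2 ratio of −3.43 ranked 2 from the lowest among the 10209 measured genes. An opposite-strand cDNA clone row overlaps it by 1851 bases and had 7 reads in the knockout-labelled library and 75 in the wildtype library, and since no source used here gives a strand setting, the reads of the clone and of Ucp3 cannot be told apart there. Ucp2, its widely expressed relative, lies 6912 bases downstream on the same strand and had 1058 reads (121 RPM) in the knockout-labelled library and 1606 reads (191 RPM) in the wildtype library, a ratio of 0.632 (0.584 to 0.683). Ucp3 accordingly made up 5.37% (4.12 to 6.85) of the reads of both genes in the knockout-labelled library and 30.4% (28.5 to 32.3) in the wildtype library. Per kilobase of exon the Ucp3 share was 8.46% in the knockout-labelled library and 41.5% in the wildtype library.

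**Figure D4:**
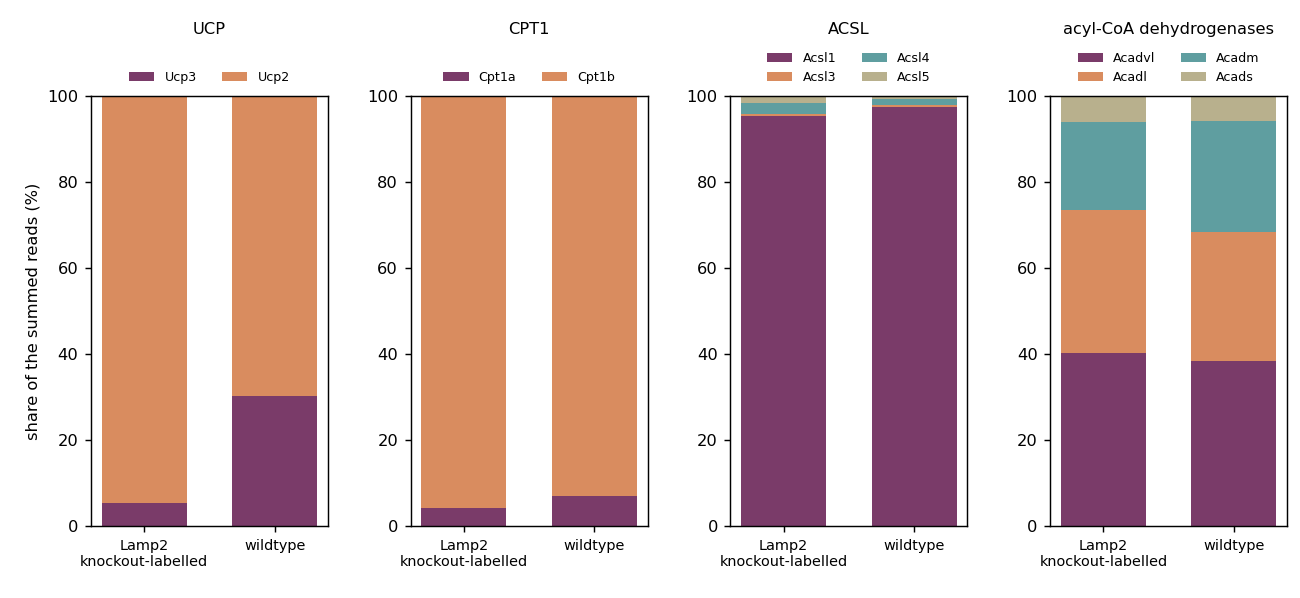
Share of summed reads (y axis, %) that each gene takes within 4 groups of related members, in the Lamp2 knockout-labelled library (left bar) and the wildtype library (right bar). The Ucp3 share is 5.37% against 30.4%, the Cpt1a share 4.26% against 6.93% and the Acadm share 20.3% against 25.8%, while Acsl1 takes over 95% of the synthetase reads in both libraries.

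A few abundant genes carried most of the missing reads. The net difference of the summed member level was −3883 RPM, knockout-labelled minus wildtype. Acot2 alone made up 15.5% of it at −603 RPM, Hadha 11.2% at −434 RPM, Ech1 10.9% at −425 RPM, Fabp3 10.2% at −397 RPM and Acsl1 7.84% at −304 RPM. Ucp3, with the lowest ratio, made up 1.97%, and Cpt1a 0.889%. By step, the spiral made up 29.8%, uptake and binding 15.4%, thioesterases and the genes for double bonds 13.7% each, the carnitine shuttle 11.9% and peroxisomal members 0.320%.

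Step by step, the ratio of summed levels was lowest for the uncoupling proteins at 0.465 (0.432 to 0.499) and the thioesterases at 0.561 (0.544 to 0.580), the value for thioesterases resting on Acot1 and Acot2. Genes for double bonds followed at 0.610 (0.592 to 0.628) and uptake and binding at 0.674 (0.658 to 0.691). Activation at 0.729 (0.706 to 0.752) and the carnitine shuttle at 0.736 (0.718 to 0.754) overlapped in their intervals. Next came the spiral at 0.822 (0.811 to 0.832), and electron transfer at 0.885 (0.862 to 0.910) and the peroxisomal genes at 0.887 (0.808 to 0.975) were the closest to 1 and overlapped. The summed ratio of activation follows Acsl1, since the median log2 ratio of that step's 4 measured genes was 0.02 and lay between −0.09 and −0.17 under the rescalings.

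**Figure D5:**
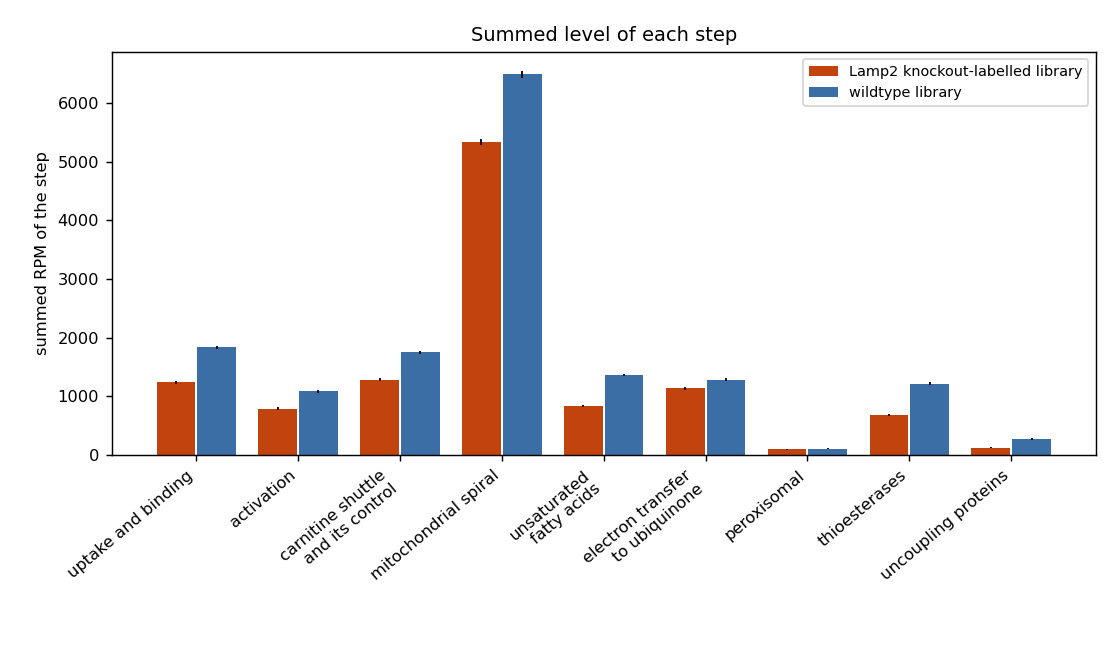
Summed RPM (y axis) of the members of each of the 9 steps in the Lamp2 knockout-labelled library (left bar) and the wildtype library (right bar), 1 library each; error bars are 95% intervals from the read counts by a normal approximation. The spiral is the largest step at 5330 against 6488 RPM, and the left bar is lower in every step, by little for the peroxisomal genes at a ratio of 0.887.

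Other genes of the pathway, 52 in a second list of carriers, oxidases, isomerases, ketone and propionate enzymes, differed less. Of 42 measured, 2 were called lower, against 2.37% of all measured genes, and 0 higher, against 3.35%. A log2 ratio below 0 was found in 23 of the 42, against 38.8% of all measured genes. Their median was −0.05, against 0.11 for all measured genes. Slc25a42, a mitochondrial coenzyme A carrier, was at 35.4 RPM in the knockout-labelled library and 96.9 RPM in the wildtype library, a ratio of 0.366 (0.320 to 0.417).

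On the other side of that list stood Bdh1, the ketone body dehydrogenase, at 186 RPM in the knockout-labelled library and 94.0 RPM in the wildtype library, a ratio of 1.97 (1.81 to 2.15), and Abcd2, a peroxisomal importer, at 5.58 RPM in the knockout-labelled library and 2.62 RPM in the wildtype library, where 49 reads in the knockout-labelled library and 22 in the wildtype library gave an interval of 1.27 to 3.71. Slc25a20, the carnitine-acylcarnitine carrier that links CPT1 to CPT2, is given because it completes the carnitine shuttle, a choice made with its value known. It was at 129 RPM in the knockout-labelled library and 167 RPM in the wildtype library, with a log2 ratio of −0.37.

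A list of 28 regulators and further PPAR targets had 26 measured genes. Of these, 5 were called lower (Angptl4, Pdk4, Ppargc1a, Ppargc1b and Txnip), against 2.37% of all measured genes. Another 2 were called higher (Klf15 and Pparg), against 3.35% of all measured genes. The median log2 ratio of the list was −0.12, against 0.11 for all measured genes. The gene of this list with the log2 ratio of largest size was Angptl4, a secreted inhibitor of lipoprotein lipase, at 3.42 RPM in the knockout-labelled library and 52.7 RPM in the wildtype library, a ratio of 0.0649 (0.0433 to 0.0940). Next was Pdk4, the kinase that restrains pyruvate oxidation, at 580 RPM in the knockout-labelled library and 2560 RPM in the wildtype library, a ratio of 0.227 (0.220 to 0.234). Ppargc1a, the PGC1 coactivator of mitochondrial genes, was at 30.2 RPM in the knockout-labelled library and 76.5 RPM in the wildtype library, while Klf15, a transcription factor that heart muscle uses for lipid genes, had 852 reads in the knockout-labelled library and 294 reads in the wildtype library, a ratio of 2.78 (2.43 to 3.18). The receptor gene Ppara, singled out after its value was seen, was at 44.2 RPM in the knockout-labelled library and 38.6 RPM in the wildtype library, a log2 ratio of 0.19.

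Markers of other cell types moved between the libraries as well. For comparison, 38.8% of all measured genes were below 0, 2.37% were called lower and 3.35% higher. Macrophage markers summed to 373 RPM in the knockout-labelled library and 203 RPM in the wildtype library, with 9 of 9 measured genes above 0 and 2 called higher. Fcgr1, a macrophage marker under the 5 RPM minimum, went the other way, with 0 reads in the knockout-labelled library and 9 in the wildtype library. The listed marker Adgre1 had no row under that name. Fibroblast markers summed to 521 RPM in the knockout-labelled library and 599 RPM in the wildtype library, with 8 of 10 below 0 and 3 called lower. Most of this sum was Dcn, at 393 RPM in the knockout-labelled library and 379 RPM in the wildtype library, a ratio of 1.04. The 3 called lower were Col1a1 at a ratio of 0.228, Col3a1 at 0.175 and Lum at 0.192. Endothelial markers summed to 958 RPM in the knockout-labelled library and 1038 RPM in the wildtype library, with 5 of 10 below 0 and 5 above. The endothelial sum includes Fabp4, which is also in the second pathway list. Fabp4 was at 281 RPM in the knockout-labelled library and 376 RPM in the wildtype library. Smooth muscle and pericyte markers summed to 757 RPM in the knockout-labelled library and 849 RPM in the wildtype library, with 7 of 7 measured genes below 0. Erythroid markers summed to 141 RPM in the knockout-labelled library and 165 RPM in the wildtype library. That sum was mostly Hba-a2, at 122 RPM in the knockout-labelled library and 145 RPM in the wildtype library. It leaves out Hba-a1, Hbb-bs and Hbb-bt, which had no row under those names.

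Defining adipocyte markers had few reads. Ucp1, Lep and Retn were at 0 reads in both libraries, Adipoq had 1 read in the knockout-labelled library and 2 in the wildtype library, and Plin1 had 1 read in the knockout-labelled library and 12 in the wildtype library. Cfd, the adipocyte marker with the most reads outside Cidea and Lipe, had 8 reads in the knockout-labelled library and 29 in the wildtype library, a ratio of 0.264 (0.104 to 0.593), and Cidec had 5 reads in the knockout-labelled library and 8 in the wildtype library. Cidea and Lipe, which heart muscle also expresses, made up nearly all of the list's sum of 140 RPM in the knockout-labelled library and 162 RPM in the wildtype library. Among skeletal muscle markers Myog was at 0 reads in both libraries, and Actn3, Mylpf, Tnnt3, Tnni2 and Pvalb had at most 9 reads in either library. The fast myosin Myh4 had 21 reads in the knockout-labelled library and 31 in the wildtype library, and the fast myosins Myh2 and Myh1 had more. Myh2 had 202 reads in the knockout-labelled library and 198 in the wildtype library, Myh1 had 89 reads in the knockout-labelled library and 78 in the wildtype library, and the intervals of both ratios included 1. Ckm, which the heart shares, made up nearly all of the sum of 3589 RPM in the knockout-labelled library and 2677 RPM in the wildtype library. The part of these cell types and of the mitochondrial share in the differences of the members was not tested.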

How the data were processed

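Reads per gene from 1 left ventricle library per genotype label were used. Per the submitters' processing notes, STAR and the builds mm10 and GRCm38 were used; no source used here gives the counting tool, annotation, strand setting or treatment of multiply matching reads. The deposited files hold the authors' whole-number read counts and RPM, which equal the count divided by the library's total, times 1000000 (largest difference 5.0e-05). The authors' deposited fold ratio and the authors' deposited p-value, whose method is not stated, were not used. At these depths 3 reads correspond to 0.342 RPM in the knockout-labelled library and 0.357 RPM in the wildtype library.

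The members and lists were chosen with earlier results of these data known. Named in full were called members and the highest per kilobase in each step; of other lists, up to 4 measured genes with the largest log2 ratio, and exceptions are marked. Ratios of RPM carry exact conditional binomial (Clopper-Pearson) intervals. The labels name no molecular identifiers, so reads may not be separate molecules and intervals cover counting error only. Exon length is the union of GENCODE M21 basic protein-coding exons (GRCm38). Deposited starts count from 0: start plus 1 matched a transcript start for 47.7% of 20997 rows and the start as deposited for 4.24%, so starts are given plus 1. Sequences are RefSeq's. The alternatives tried were a pseudocount of 0.1 or 5 RPM, a minimum of 1 or 20 RPM or no minimum, rules of 1.5- and 3-fold, the 2-fold rule with an exact binomial test on reads, Benjamini-Hochberg adjusted, and 3 rescalings. Leaving out members that share over 20% of their 50-base words was chosen later, with the data in view. Computation used Python 3.11.15, scipy 1.17.1, pandas 2.3.3, biopython 1.88 and edgeR 4.0.16 (TMM only). Some genes of the second pathway list are counted but not reported here by name.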

Additional observations from a re-analysis of the deposited data

How the results depend on the processing

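No paired analysis was possible because each group held 1 library, so no replicate could be left out either. The median log2 ratio of members, −0.43 as reported, was −0.45 and −0.42 with pseudocounts of 0.1 and 5 RPM, −0.50 with a minimum of 20 RPM, −0.54, −0.55 and −0.62 with the median ratio, TMM and reduced total scalings, and −0.41 without the 9 members that share over 20% of their 50-base words with another annotated gene, an alternative chosen after seeing the data. The count of members called lower, 4 as reported, was 10 with the 1.5-fold rule and 2 without those 9 members, which include Acot1 and Acot2. No member was called higher under any of these alternatives. The highest member log2 ratio was 0.39 as reported. The 3-fold rule, the added binomial test and the rescalings could not add a higher call. Over all measured genes the lower calls, 242 as reported, were 745 with the 1.5-fold rule, 46 with the 3-fold rule, 397 with a minimum of 1 RPM or none, 92 with a minimum of 20 RPM, 75 with a pseudocount of 5 RPM and 494 with the reduced total. The higher calls, 342 as reported, were 1307 with the 1.5-fold rule, 87 with the 3-fold rule, 220 with a minimum of 20 RPM and 194 with a pseudocount of 5 RPM. These counts follow from the thresholds, filters and scale factors themselves. Of 170 log2 ratios of single members recomputed with other pseudocounts and scalings, 97 stayed within their counting interval and 73 did not. The 4 called members kept their sign, which these alternatives could not have changed. Acss1, Etfa, Acsl4 and Acaa1a changed sign under each rescaling. Ratios of members under about 10 RPM rest on few reads.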
